A study of Bos grunniens with 18 samples.

Results

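Transcripts of 9 genes known from sperm and from spermatids, the haploid cells that become sperm in the testis, were described in the epididymis of healthy adult yaks (Bos grunniens), the duct in which sperm mature after they leave the testis. The genes were Tsks, CYLC1, AKAP3, Akap4, Odf2, Actl7b, CABS1, CAPZA3 and SPZ1. They were chosen by symbol, in any letter case, after their m6A values in these data were known, so the counts and folds of their peaks are a description and not a test. The 9 symbols matched 10 of the 18467 gene rows of the expression table, since 2 rows carry the symbol ACTL7B: the row written ACTL7B (ENSBGRG00000002132) and the row written Actl7b (ENSBGRG00000022764). The RefSeq gene table of the assembly Bosgru_T2T1.0 lists 1 gene of that symbol, so 1 of these 2 rows may be a different gene. Values of the 2 rows are also uncertain where their reads could be shared. All m6A peaks and candidate adenosines given under this symbol belong to the Actl7b row. The study enriched fragmented poly(A) RNA with an antibody against m6A (N6-methyladenosine), a methylated form of adenosine that occurs inside messenger RNA. It compared the head (caput), body (corpus) and tail (cauda) of the duct of males 4 years old, for which no treatment or genotype is given, with 3 enriched (RIP) and 3 unenriched (input) libraries per region. The labels' protocols name 6 animals but do not tie libraries to them, so the spread between libraries may be technical.

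Late in spermatogenesis, transcription ends as the chromatin is compacted by protamines, and messenger RNA made earlier is stored and translated with a delay. Some of this RNA remains in sperm that have left the testis. The genes described here encode parts of the tail (AKAP3, AKAP4, ODF2, CABS1), parts of the head and its cytoskeletal calyx (CYLC1, ACTL7B, CAPZA3), a partner of spermatid kinases (TSKS) and a transcription factor of germ cells (SPZ1). In whole tissue, fewer cells of a type and less RNA per cell cannot be told apart.

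The expression values were deposited as FPKM, fragments scaled to transcript length and library size, for 9 input libraries. Their column codes, which begin with EA, EB or EC, match no region label. No library was therefore put in a region, and no test was made between codes. Over the genes whose whole fragments could be recovered from the FPKM steps, the recovered fragments summed to 8991130 to 12857337 per library. Each gene's fragments are known only up to a common factor, so these sums are not the fragment counts of the libraries. Relative depth varied 1.26-fold. Lcn5, a lipocalin secreted by the principal cells of the duct, held the largest share of FPKM in the EA and EB libraries, and CD52, a sperm-coating protein of the duct epithelium, in the EC libraries. The library EC2_2 stood apart from EC3_2 and EC4_1: across genes its Spearman correlation was 0.931 with EC3_2, 0.933 with EC4_1 and 0.947 with EA2_1, against 0.978 between EC3_2 and EC4_1. Values are therefore given by library.

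All 10 rows had their 4 highest libraries in EC2_2, EA2_1, EA3_1 and EA4_1, a set found in 11.1% of all genes, and their highest value in EC2_2 (26.2% of all genes). With FPKM divided by each library's upper quartile, a scaling added after the data were seen, EC2_2 was highest for 8 of the 10, and AKAP3 and CAPZA3 were highest in EA4_1. All 10 had their lowest value in an EB library (33.1% of all genes). By median FPKM over the 9 libraries the order was Odf2 (26.2), CABS1 (10.5), SPZ1 (2.83), ACTL7B (2.36), Actl7b (1.90), Akap4 (1.77), CAPZA3 (1.70), Tsks (1.53), AKAP3 (0.724) and CYLC1 (0.195). The ranges over libraries overlapped between every pair of neighbours in this order.

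**Figure D1:**
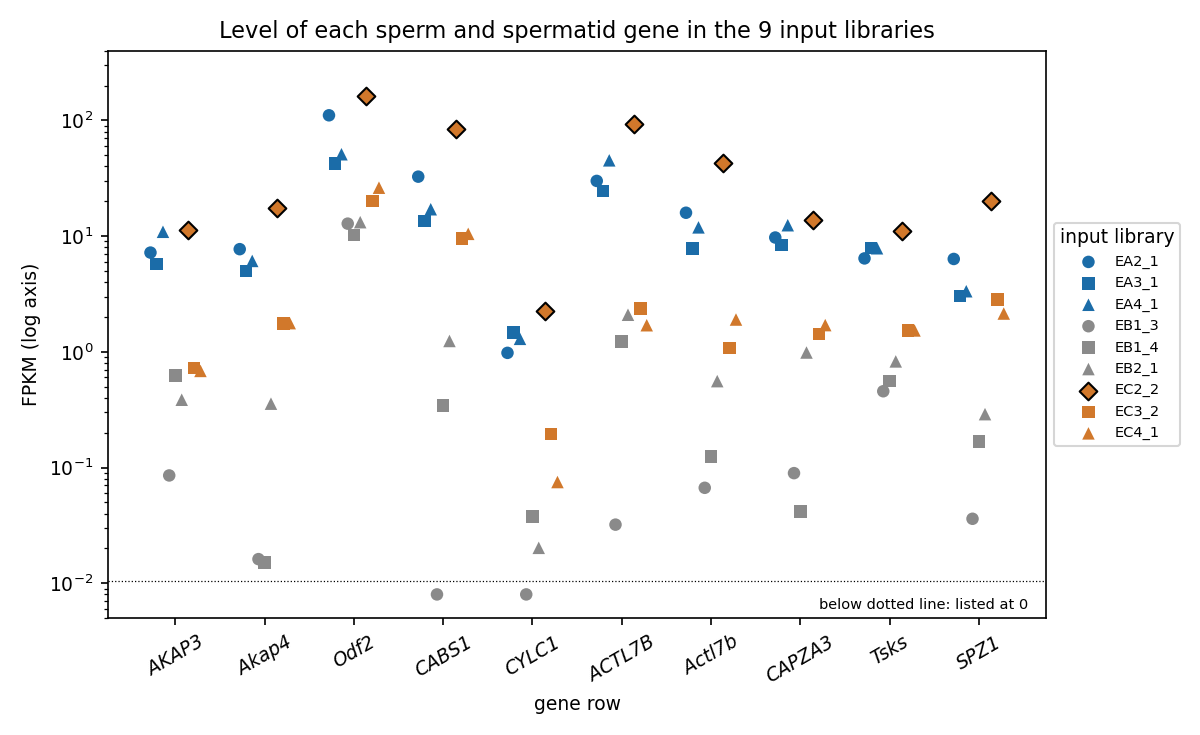
FPKM (log axis) of the 10 gene rows in the 9 input libraries, 1 point per library, with EC2_2 outlined in black. In FPKM as deposited, EC2_2 was the highest library of all 10 rows (8 when scaled by the upper quartile, without AKAP3 and CAPZA3), from 2.24 FPKM for CYLC1 to 162.5 for Odf2, and an EB library was the lowest. CABS1 and CYLC1 were listed at 0 in EB1_3.

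Among the tail genes, AKAP3 and AKAP4 are anchoring proteins of the fibrous sheath, the sleeve around the principal piece of the tail. AKAP3 (ENSBGRG00000011443) was at 7.20, 5.75 and 10.9 FPKM in EA2_1, EA3_1 and EA4_1, at 0.0854, 0.626 and 0.385 in EB1_3, EB1_4 and EB2_1, and at 11.4, 0.724 and 0.684 in EC2_2, EC3_2 and EC4_1. Akap4 (ENSBGRG00000025520) was at 7.71, 4.996 and 6.10 FPKM in the EA libraries, 0.0162, 0.0150 and 0.356 in the EB libraries and 17.6, 1.75 and 1.77 in the EC libraries, each in the same order. The EB values of Akap4 rested on 1, 1 and 22 fragments, the first 2 of which are under the floor of 3 fragments, while EC2_2 held 1169. For AKAP3 the EC2_2 value was close to that of EA4_1, whereas for Akap4 it was 2.29 times the next library.

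ODF2 is a structural protein of the outer dense fibres of the tail and, in other cells, of centrioles. Odf2 (ENSBGRG00000010746) was at 110.7, 42.4 and 51.0 FPKM in EA2_1, EA3_1 and EA4_1, at 12.8, 10.3 and 13.2 in EB1_3, EB1_4 and EB2_1, and at 162.5, 20.1 and 26.2 in EC2_2, EC3_2 and EC4_1. It was the one row above 10 FPKM in every library, with 1217 or more fragments in each. CABS1, a calcium-binding protein of the sperm tail, was at 32.6, 13.6 and 17.1 FPKM in the EA libraries, at 0, 0.343 and 1.24 in the EB libraries and at 83.9, 9.53 and 10.5 in the EC libraries (ENSBGRG00000026539). Its 0 in EB1_3 allows a level of up to 0.1003 FPKM, the value of 3 fragments there, for counting error only.

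Of the head genes, CYLC1 encodes cylicin, a basic protein of the calyx around the sperm nucleus. CYLC1 (ENSBGRG00000013173) had the lowest median level of the 10 rows, with 0.979, 1.46 and 1.29 FPKM in EA2_1, EA3_1 and EA4_1, then 0, 0.0376 and 0.0202 in EB1_3, EB1_4 and EB2_1, and 2.24, 0.195 and 0.0749 in EC2_2, EC3_2 and EC4_1. The 3 EB values rested on 0, 2 and 1 fragments, and the 0 allows up to 0.0605 FPKM. The EC4_1 value rested on 4 fragments, so CYLC1 was near the limit of detection in these 4 libraries.

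ACTL7B is an actin-like protein of spermatids. The ACTL7B row was at 29.99, 24.4 and 45.2 FPKM in EA2_1, EA3_1 and EA4_1, at 0.0321, 1.23 and 2.09 in EB1_3, EB1_4 and EB2_1, and at 93.0, 2.36 and 1.70 in EC2_2, EC3_2 and EC4_1. The Actl7b row was at 15.9, 7.83 and 11.9 FPKM in the EA libraries, 0.0668, 0.124 and 0.558 in the EB libraries and 42.6, 1.08 and 1.90 in the EC libraries. In ACTL7B, EC2_2 was 39.4 times the higher of EC3_2 and EC4_1, the widest such gap of the 10 rows, and Odf2 with 6.20 times had the narrowest. ACTL7B was also the one row in which an EC library (EC4_1) lay below an EB library (EB2_1).

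CAPZA3 is the testis form of the capping protein that caps actin filaments. CAPZA3 (ENSBGRG00000002812) was at 9.72, 8.39 and 12.4 FPKM in EA2_1, EA3_1 and EA4_1, at 0.0894, 0.0416 and 0.986 in EB1_3, EB1_4 and EB2_1, and at 13.7, 1.43 and 1.70 in EC2_2, EC3_2 and EC4_1. TSKS, a substrate of the testis-specific serine kinases, was at 6.42, 7.89 and 7.85 FPKM in the EA libraries, at 0.456, 0.562 and 0.826 in the EB libraries and at 11.1, 1.53 and 1.53 in the EC libraries (Tsks, ENSBGRG00000023079). Both genes spanned a narrow range within the EA libraries, and EC2_2 exceeded the next library only 1.099 times for CAPZA3 and 1.40 times for Tsks. SPZ1, a basic helix-loop-helix leucine zipper protein described in mouse germ cells, was at 6.35, 3.04 and 3.34 FPKM in the EA libraries, 0.0360, 0.168 and 0.289 in the EB libraries and 20.0003, 2.83 and 2.14 in the EC libraries (ENSBGRG00000020037). Here EC2_2 was 3.15 times the next library, the widest such gap of the 10 rows.

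The 5 genes whose order over the 9 libraries was most like that of Akap4 were ARL9, TSPAN16, FAM166C, Prss52 and Dnajb8, each with a Spearman rho of 1, with ties ranked by the Pearson correlation of log2(FPKM + 0.1). In all, 27 genes had a rho of 1 and 382 a rho of at least 0.95. The other 9 rows described here had rho of 0.867 (CYLC1) to 1 (Odf2). The libraries share depth and tissue composition, so these values describe likeness only.

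Other haploid germ cell genes lay in the same libraries. They were taken from 4 lists: sperm tail, sperm head and acrosome, chromatin packaging, and kinases, channels, metabolism and regulators. Of the 65 rows of these lists that are not among the 10, 62 had a median of at least 0.1 FPKM (81.9% of all genes). Of the same 65 rows, 51 were highest in EC2_2 (26.2% of all genes). EC2_2 and the 3 EA libraries were the 4 highest for 57 (11.1% of all genes). TNP1, a transition protein that replaces histones in spermatids, reached 816, 576 and 546 FPKM in EA2_1, EA3_1 and EA4_1, then 2.63, 7.36 and 74.7 in EB1_3, EB1_4 and EB2_1, and 1483, 307 and 301 in EC2_2, EC3_2 and EC4_1. PRM2, a protamine, was at 163, 155 and 109 FPKM in the EA libraries, 0.356, 1.99 and 6.42 in the EB libraries and 170 (EC2_2), 13.8 (EC3_2) and 6.61 (EC4_1) in the EC libraries. In both genes the same 4 libraries were the highest as in the 10 rows described.

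By median FPKM over the 9 libraries, the highest other genes of these lists were Odf1 (outer dense fibre protein) and GAPDHS (the sperm form of a glycolytic enzyme) in the tail, DKKL1 (an acrosomal protein), IZUMO4 and ACRBP (a binding protein of proacrosin) in the head, Hils1 (a spermatid linker histone) in chromatin, and GSG1 and CRISP2 among the regulators. In EC2_2 their levels were 363 FPKM for Odf1, 293 for GAPDHS, 360 for DKKL1, 110 for IZUMO4, 43.1 for ACRBP, 91.3 for Hils1 and 410 for GSG1. CRISP2 had 2 rows. One was at 235 FPKM in EC2_2 and 0.338 to 4.92 in the EB libraries, and the other was lowest in EC2_2 (8.87 FPKM) and reached 76.9 in EB1_4.

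The lists of earlier germ cells and of testis somatic cells had lower sums than the haploid lists in EC2_2 and the EA libraries, but not in every other library. The 17 rows of meiotic and earlier germ cell genes summed to 37.0, 12.6 and 20.4 FPKM in EA2_1, EA3_1 and EA4_1, to 14.7, 6.39 and 6.96 in EB1_3, EB1_4 and EB2_1, and to 44.9, 4.79 and 6.13 in EC2_2, EC3_2 and EC4_1. MAEL, a protein of the pathway that silences transposons in germ cells, was the highest of them in EC2_2 at 17.2 FPKM, with 15.3, 2.79 and 6.99 in EA2_1, EA3_1 and EA4_1 and at most 0.672 in the other libraries. By median FPKM the highest rows of this list were ZBTB16, TEX14 (ENSBGRG00000024451) and TEX11, and they did not all move as MAEL did. ZBTB16 was highest in EB1_3 at 12.2 FPKM, most of the sum there, against 8.94 in EC2_2. TEX14 was highest in EA2_1 at 9.46 FPKM, and TEX11 ranged from 0.512 to 1.61 over the 9 libraries. SPO11, which cuts DNA to start meiotic recombination, was listed at 0 in 8 of the 9 libraries and at 0.163 FPKM in EC2_2. The 12 rows of Sertoli and Leydig cell genes summed to 27.1 to 61.9 FPKM, mostly AMH, CLDN11 and INHA, and were highest in EC3_2. AMH, a hormone known from Sertoli cells, was at 10.01 to 17.3 FPKM in all 9 libraries, and INHA, an inhibin subunit, reached 39.3 in EC3_2, so these were not confined to the libraries in which the sperm and spermatid genes were high. The Leydig enzyme CYP17A1 had 3 rows, each at or below 0.294 FPKM in every library.

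**Figure D2:**
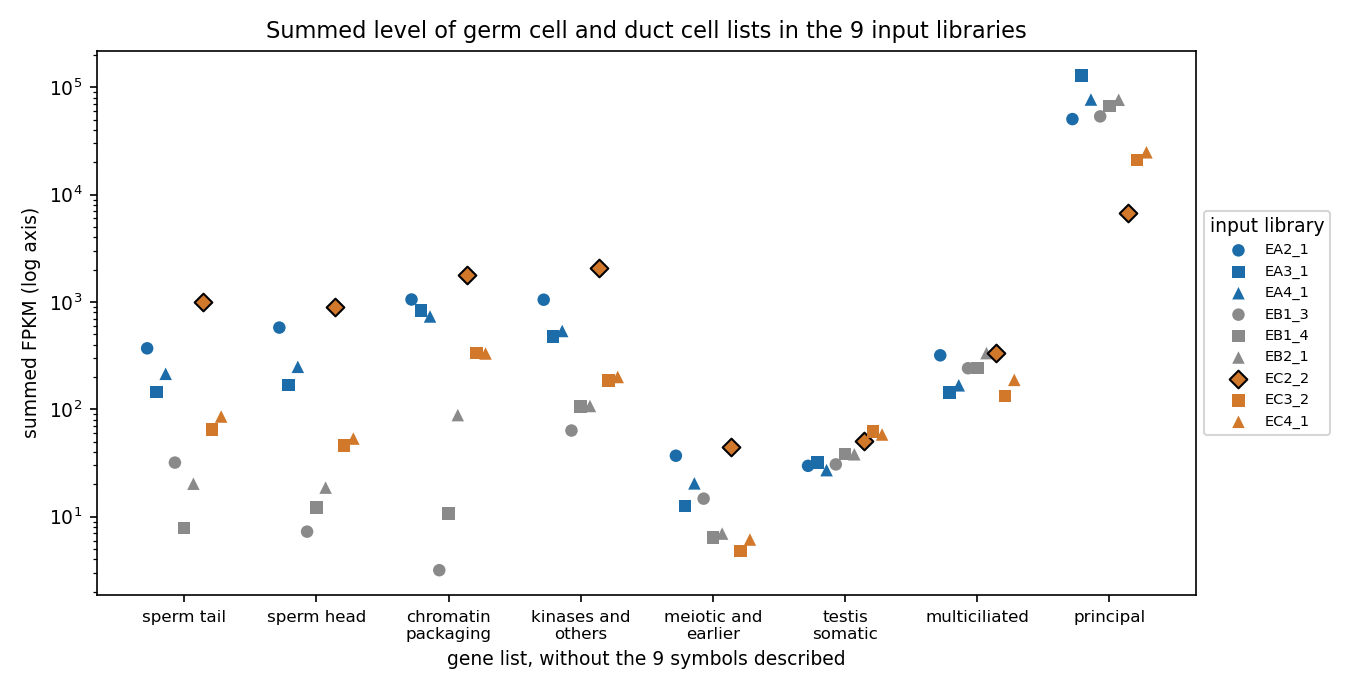
Summed FPKM (log axis) of 8 gene lists in the 9 input libraries, 1 point per library, leaving out the 9 symbols described. The 4 haploid germ cell lists were highest in EC2_2 and lowest in EB1_3 or EB1_4, while the principal cell list was lowest in EC2_2 at 6701 FPKM.

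Lists of duct cells moved with some of these libraries too. The 18 rows of principal cell genes summed to 6701 FPKM in EC2_2, 21129 in EC3_2 and 24812 in EC4_1, and to 50583 (EA2_1) up to 128875 (EA3_1) in the EA and EB libraries. Lcn5 alone was at 1951, 14651 and 15230 FPKM in EC2_2, EC3_2 and EC4_1, and at 113865 in EA3_1. The rows did not all move alike: CLU (ENSBGRG00000001455) was at 2832 FPKM in EC2_2, 137 in EC3_2 and 1310 in EC4_1. Of the 18 rows, 1 was highest in EC2_2. EC2_2 was also highest for leukocyte genes (2765 FPKM, against 890 to 1623 in the others) and smooth muscle genes (7956, against 3826 to 7049). The 21 rows of multiciliated cell genes, many of which sperm tails also use, summed to 319, 144 and 167 FPKM in the EA libraries, 242, 244 and 334 in the EB libraries and 332, 133 and 188 in EC2_2, EC3_2 and EC4_1. Row by row, 14 of the 21 had EC2_2 and the 3 EA libraries as their 4 highest, as the 10 rows described did (11.1% of all genes). CAPS, a calcium-binding protein, was the highest of these rows in every library, at 137, 77.7 and 84.1 FPKM in EA2_1, EA3_1 and EA4_1. It was at 212, 175 and 268 in EB1_3, EB1_4 and EB2_1, and at 101, 83.8 and 140 in EC2_2, EC3_2 and EC4_1. CAPS made up most of the sum in the EB libraries, whereas most of the sum in EC2_2 and EA2_1 came from the other rows. FOXJ1, the master regulator of motile cilia, was at 6.34 FPKM in EA2_1 and 4.01 in EC2_2 and at or below 0.344 in the other libraries. Their part in the levels of the sperm and spermatid genes was not tested.

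The m6A data were deposited as 1 list of candidate adenosines per region and 3 tables in which the authors compared peaks of a pair of regions. A candidate peak was given to a gene where it overlapped a span of that gene's peaks in a comparison table by at least 1 base. All rows but ACTL7B had a peak in a comparison table. All 9 of these were listed in the caput, 1 in the corpus (Odf2) and 5 in the cauda (Odf2, AKAP3, Akap4, CYLC1 and Tsks). Among all 9629 genes with a peak in a comparison table, 80.1% were listed in the caput, 77% in the corpus and 79.3% in the cauda. Thus 8 of the 9 were listed in the caput and not the corpus (10.8% of all genes), and CABS1, Actl7b, CAPZA3 and SPZ1 in the caput alone (5.25% of all genes). A listing in 1 region is not a measured difference, and the genes were chosen with these lists known.

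Over the 9 rows the lists held 146 candidate positions in the caput, 51 in the corpus and 82 in the cauda. Without Odf2 they held 92, 0 and 35. The authors classed 22 of the caput positions (15.1%, 95% Wilson interval 10.2 to 21.8), 8 of the corpus positions (15.7%, 8.17 to 28.0) and 16 of the cauda positions (19.5%, 12.4 to 29.4) as m6A sites, in classes from low to very high confidence. Of all positions in the lists, 19.1% in the caput, 19.3% in the corpus and 19.1% in the cauda were so classed. Each interval held the share of its own list. The intervals cover counting error only and treat neighbouring positions of a few chosen genes as independent. All corpus positions were of Odf2, so these shares do not test the genes or the regions. In all, 26 different adenosines in 8 rows were classed: 8 in all 3 regions, 4 in the caput and cauda, 10 in the caput alone, 4 in the cauda alone and 0 in the corpus alone.

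**Figure D3:**
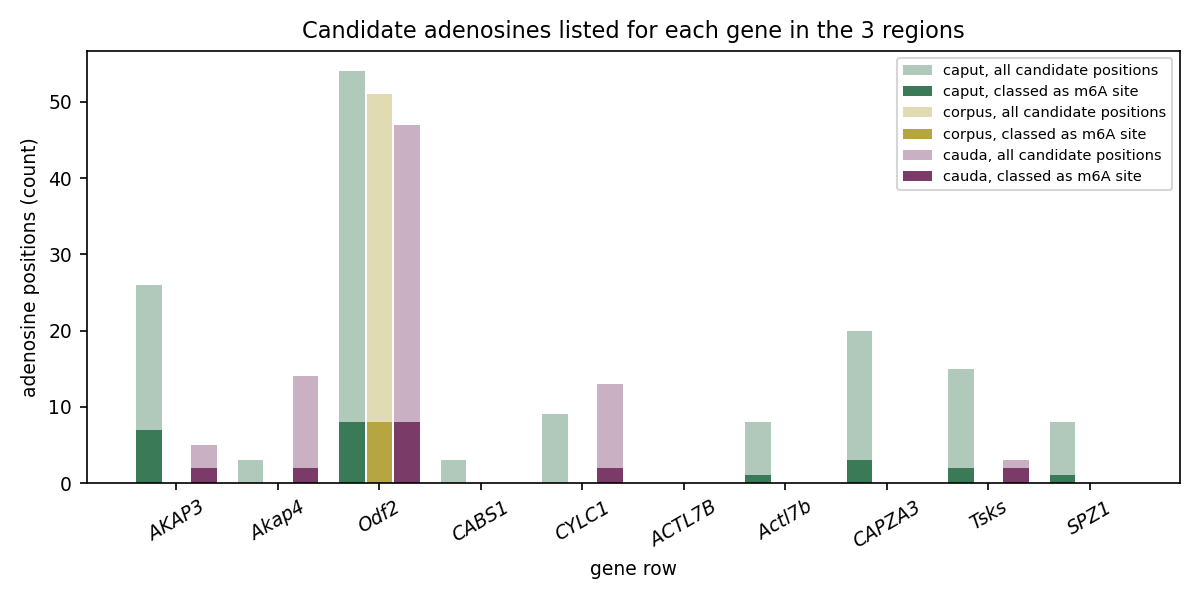
Number of candidate adenosine positions listed for each gene row in the caput, corpus and cauda (pale bars), with those classed as m6A sites (dark bars). Only Odf2 had corpus positions (51), beside 54 in the caput and 47 in the cauda, and ACTL7B had none.

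The tail genes held most of the classed adenosines. Odf2, on the plus strand of chromosome 9, had 54, 51 and 47 candidate positions in the caput, corpus and cauda, and the same 8 were classed in all 3 regions. The highest score among them was 0.69, at position 7819692, in the very high confidence class, beside classed adenosines at 7819644 and 7819714. A position has the same score in every list, so scores do not compare regions. AKAP3, on the plus strand of chromosome 5, had 26 positions in 2 caput peaks, 7 of them classed, and 5 positions in 1 cauda peak, 2 of them classed. Both cauda positions, 112825573 (score 0.584) and 112825593 (0.597), were in the caput list as well. The caput list added 5 further downstream, with scores up to 0.69 at 112826285.

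Akap4, on the minus strand of the X chromosome, had 3 positions and 0 classed in the caput, and 14 positions with 2 classed in the cauda. Both of the cauda sites, at 95747660 (score 0.665) and 95748151 (0.616), lay in a cauda peak from 95747634 to 95748182, outside the spans of the gene's peaks in the comparison tables. The caput peak there was shorter, from 95747684 to 95747982. CABS1, on the minus strand of chromosome 6, had 3 positions in 1 caput peak, 0 of them classed, with a highest score of 0.542.

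Among the head genes, CAPZA3 had 20 positions in a single caput peak on the plus strand of chromosome 5, from 11347919 to 11348568. Of its 3 classed adenosines, 11348073 had a score of 0.722, the highest of all 10 rows. CYLC1, on the minus strand of the X chromosome, had 9 caput positions, 0 of them classed, and 13 cauda positions, 2 of them classed. These sites, 74892802 (0.621) and 74892824 (0.627), lay in the 99 bases between 2 caput peaks that a single cauda peak spanned. Actl7b, on the minus strand of chromosome 22, had 8 caput positions in 2 peaks, with 1 classed at low confidence (11907834, 0.561).

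Tsks, on the plus strand of chromosome 20, had 15 caput positions in 3 peaks and 3 cauda positions in 1 peak. The same 2 adenosines, 58958090 (0.632) and 58958161 (0.567), were classed in both regions. SPZ1, on the minus strand of chromosome 23, had 8 caput positions in 1 peak, with 1 classed (7374138, 0.571). None of the positions of the 9 rows lay in a peak span of another gene.

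For the corpus over the caput, the authors' deposited table held 12 peaks of 6 genes, of which 5 were lower and 0 higher in the corpus at an adjusted p under 0.05. Of all 14061 peaks in that table, 2.98% were so called, 1.86% as lower and 1.12% as higher. The median log2 fold of the 12 peaks was -0.29, against -0.02 over all peaks. All 12 overlapped a caput candidate peak and 2, both of Odf2, a corpus one. The folds contributed to the choice of the genes and are given as a description. At an unadjusted p under 0.05 they numbered 9, 2 higher and 7 lower (16.4% of all peaks in either direction). The sources used here do not say whether the folds are taken relative to input, so transcript level and methylation cannot be told apart in them.

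In the authors' deposited table the largest decrease was in CYLC1, in the peak from 74892873 to 74893022, at -3.15 on the log2 scale, with an adjusted p listed as 0. The next CYLC1 peak ends 99 bases away, at 74892773, and covers 250 bases without gaps over a span of 10110. The authors' deposited table gave it 2.87 on the log2 scale and an adjusted p of 0.61. The 2 neighbouring peaks of 1 low transcript thus had opposite signs. A p listed as 0 may be a placeholder.

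Tsks had 3 peaks in the same table. The authors' deposited table gave -2.91 on the log2 scale and an adjusted p of 1.3e-08 for the one from 58939632 to 58951450. For the other 2 it gave 0.76 (adjusted p 0.64) and -0.77 (adjusted p 0.24), and the last of these holds the 2 classed adenosines. SPZ1 had 1 peak, from 7374122 to 7374849, and the authors' deposited table gave it -1.23 on the log2 scale with an adjusted p listed as 0. In this comparison the called peaks of Tsks, CYLC1 and Akap4 held none of the adenosines classed as m6A sites. The called peak of SPZ1 held the 1 classed in that gene.

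The decreases in the peaks of AKAP3 and Akap4, the genes of the anchoring proteins, were smaller. The authors' deposited table gave a log2 fold of -0.30 to the AKAP3 peak from 112825889 to 112826286 and of -0.42 to the Akap4 peak from 95747684 to 95747933, each with an adjusted p of 0.014. For a second AKAP3 peak, 197 bases upstream, the authors' deposited table gave 0.58 (adjusted p 0.20). The called AKAP3 peak held the classed adenosines at 112826048, 112826136 and 112826285, and the other one both sites shared by caput and cauda. For the 3 Odf2 peaks the authors' deposited table gave log2 folds of 0.18, 0.23 and -0.29, with adjusted p from 0.14 to 0.95, and none was called. In this comparison 4 of the 4 genes with several peaks had folds of both signs, as did 60.3% of all such genes. The same held for 1 of 5 genes for the cauda over the caput (59% of all such genes) and for CYLC1, the 1 gene with several peaks, for the cauda over the corpus (58.4%).

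**Figure D4:**
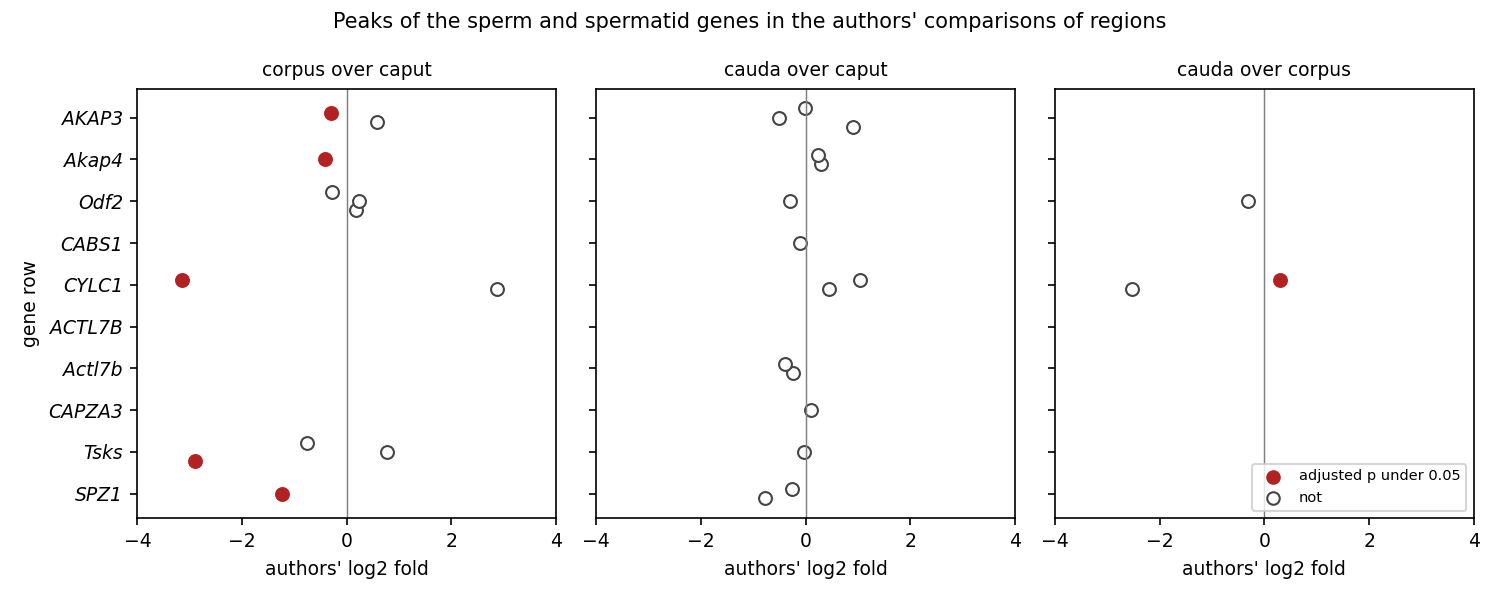
The authors' log2 folds of the peaks of each gene row in 3 comparisons of regions, 1 point per peak, filled where the adjusted p was under 0.05. The 5 filled points of corpus over caput lie below 0, from -3.15 for CYLC1 to -0.30 for AKAP3, cauda over caput has none, and cauda over corpus has 1, of CYLC1 at 0.29.

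For the cauda over the caput, the authors' deposited table held 15 peaks of all 9 genes with a peak, and 0 were called at an adjusted p under 0.05, against 2.27% of all 13826 peaks. At an unadjusted p under 0.05 there were 4, 1 higher and 3 lower (17.2% of all peaks, 10.5% as higher and 6.68% as lower). The median log2 fold was -0.03, against 0.04 over all peaks. Of the 15 peaks, 4 overlapped a cauda candidate peak and 14 a caput one. The exception was the AKAP3 peak from 112824749 to 112824947, which overlapped none and to which the authors' deposited table gave 0.91 on the log2 scale (adjusted p 0.15).

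By gene, the authors' deposited table gave log2 folds of the cauda over the caput of -0.51 and -0.01 for the other 2 AKAP3 peaks, 0.29 and 0.23 for the 2 Akap4 peaks, -0.29 for Odf2 and -0.11 for CABS1. It gave 0.45 and 1.04 for the 2 CYLC1 peaks, -0.25 and -0.40 for the 2 Actl7b peaks and 0.09 for CAPZA3. It gave -0.03 for Tsks and -0.78 and -0.26 for the 2 SPZ1 peaks. The adjusted p of these peaks ran from 0.11, for the first SPZ1 peak, to 0.97, for the second. CABS1, Actl7b and CAPZA3 had peaks in this comparison and in neither of the others. Peaks were cut differently between the tables: the Tsks peak ran from 58939632 to 58952299 here and took in 2 of the peaks listed for the corpus over the caput.

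For the cauda over the corpus, the authors' deposited table held 3 peaks, 1 of Odf2 and 2 of CYLC1. The CYLC1 peak from 74893122 to 74893321 was higher in the cauda in that table, by 0.29 on the log2 scale with an adjusted p of 0.037, and was the one called (1.96% of all 13917 peaks, 1.24% as higher). At an unadjusted p under 0.05 there were 2, 1 in each direction (16.4% of all peaks). No candidate peak of the cauda or the corpus overlapped it. The authors' deposited table gave -2.53 (adjusted p 0.25) to the other CYLC1 peak, from 74882664 to 74892823, where a candidate peak was listed in the cauda and none in the corpus. For the Odf2 peak the authors' deposited table gave -0.31 (adjusted p 0.78). These comparisons share libraries of each region, so they are not independent of each other.

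Peaks of the other haploid germ cell genes were counted in the same way. Of the 65 rows, 17 had a peak in a comparison table, of which 14 were listed in the caput, 6 in the corpus and 7 in the cauda, and 9 in the caput and not the corpus (10.8% of all genes with a peak). Of 14 peaks of the corpus over the caput, 1 was lower and 0 higher, where 2.98% of all peaks were called. It was in CCIN, a calyx protein, to which the authors' deposited table gave -0.24 on the log2 scale and an adjusted p of 0.00066. The median log2 fold of the 14 was 0.10, against -0.29 for the 12 peaks of the genes described. Of 18 peaks of the cauda over the caput, 1 was higher and 0 lower, where 2.27% of all peaks were called. It was in CRISP2, a cysteine-rich secretory protein of the sperm tail and acrosome, with 0.47 on the log2 scale and an adjusted p of 0.048 according to the authors' deposited table. This is the CRISP2 row that was lowest in EC2_2 (ENSBGRG00000023771). Of 8 peaks of the cauda over the corpus, 0 were called, against 1.96% of all peaks.

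Genes of motile cilia were listed beside these because sperm tails and multiciliated cells share parts of the axoneme. Of the 21 rows, 12 had a peak in a comparison table. Of 8 peaks of the corpus over the caput, 1 was called higher and 3 lower (2.98% of all peaks called). Of 15 peaks of the cauda over the caput, 0 were called higher and 2 lower (2.27%), and of 7 peaks of the cauda over the corpus, 1 higher and 1 lower (1.96%). TEKT1, a tektin of ciliary microtubules, had 2 peaks lower in the corpus than the caput, for which the authors' deposited table gave log2 folds of -0.45 (adjusted p 0.014) and -1.48 (adjusted p 0.0093), and 1 peak higher in the cauda than the corpus (1.34, adjusted p 0.013). DNAI2, a dynein intermediate chain, was lower in the corpus than the caput (-0.40, with 0.0023 as adjusted p, by the authors' deposited table). RSPH4A, a radial spoke protein, had a peak higher in the corpus than the caput in the authors' deposited table (1.22, adjusted p 0.014) and 2 lower in the cauda than the caput (-0.58, adjusted p 0.0017, and -1.46, p listed as 0). TPPP3 was lower in the cauda than the corpus in the authors' deposited table (-0.72, adjusted p 0.0085). In the input libraries TEKT1 was at 15.3, 4.801 and 7.58 FPKM in EA2_1, EA3_1 and EA4_1, at 0.143, 0.398 and 0.500 in EB1_3, EB1_4 and EB2_1, and at 21.5, 1.02 and 0.794 in EC2_2, EC3_2 and EC4_1. DNAI2 was at 6.77, 0.789 and 0.786 FPKM in the EA libraries, 0.0257 to 0.116 in the EB libraries and 6.85, 0.112 and 0.203 in the EC libraries. Both had the same 4 highest libraries as the genes described. RSPH4A and TPPP3 did not: RSPH4A was at 1.84, 0.454 and 2.17 FPKM in the EA libraries and at most 0.0573 in any other, EC2_2 included. TPPP3 was at 18.9, 15.8 and 12.6 FPKM in the EA libraries, 6.74, 27.2 and 20.2 in the EB libraries and 33.2, 13.1 and 11.8 in the EC libraries.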

How the data were processed

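MeRIP-seq of yak epididymis was analysed from the deposited files. Reads were handled with Trimmomatic, HISAT2 and deepTools, per the submitters' processing notes, which give no versions. The sources used here do not name the genome build, the peak caller, the site predictor or the test behind the comparisons. The authors deposited FPKM values per gene for 9 input libraries. The authors' comparison tables hold, per the file headers, a ratio (fold) per peak, its log2 value, a p-value and an adjusted p-value, and the authors' lists hold a prediction score and class per candidate adenosine. In each fold the region named first is the numerator. Peak lengths are the authors'.

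From these were computed the levels by library, list sums, positions counted once with their highest score (1-based), overlaps of at least 1 base (intervaltree 3.1.0) and 95% Wilson intervals (statsmodels 0.14.6), with Python 3.11.15, pandas 2.3.3 and numpy 2.4.6. Figures were drawn with matplotlib 3.10.9. Whole fragments were recovered from the steps between FPKM values (tolerance 0.02, tested on simulated data) for 15398 of 16358 genes above 0 in at least 5 libraries (94.1%). They are known up to a common factor, and the floor is 3 fragments. Per-sample columns not used numbered 0. No test was fitted: the comparison tables hold no values per library, and the codes of the FPKM columns match no region. Coding or UTR classes and sequences were not analysed here.

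The genes and lists were chosen with earlier results of these data known. Named beside the 9 symbols were up to 3 genes per list by median FPKM, haploid and multiciliated list genes with an adjusted p under 0.05, and the 5 genes most like Akap4; MAEL, SPO11, CYP17A1 and FOXJ1 were named after their values were seen. Alternatives tried were other thresholds, overlaps, classes, pseudocounts and scalings, and leaving out EC2_2 or scaling by the upper quartile, both chosen after seeing the data.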

Additional observations from a re-analysis of the deposited data

Results flagged for a closer look

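Of the 10 gene rows, 5 had 1 library far from the other 8, by the gap of the highest library to the next over the whole range (above Dixon's 95% critical value for 9 values). In each it was EC2_2. Akap4 was at 17.6 FPKM there, with a gap of 0.563 of the range. CABS1 was at 83.9 FPKM (gap 0.611), ACTL7B at 93.0 (0.514), Actl7b at 42.6 (0.627) and SPZ1 at 20.0003 (0.684). The other 5 rows were highest in EC2_2 too in FPKM as deposited, with smaller gaps, but AKAP3 and CAPZA3 were highest in EA4_1 when scaled by the upper quartile. Chance flags about 1 in 20 groups of 9 values drawn from 1 normal population. The 9 libraries come from 3 regions and are not replicates of 1 region, so that rate need not hold here. The 5 rows share the library, so they are not 5 separate signs.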

How the results depend on the processing

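No paired analysis was possible because the result tables hold no values per library and the codes of the FPKM columns carry no replicate number of the labels. At an unadjusted p under 0.05, peaks of the genes described numbered 9 for the corpus over the caput (5 at the adjusted threshold), 4 for the cauda over the caput (0) and 2 for the cauda over the corpus (1). With a fold of at least 2 added they numbered 3 and, for the cauda over the corpus, 0. Leaving out peaks with p listed as 0 left 3 for the corpus over the caput. Taking the median over a gene's peaks in place of the peak with the lowest p turned the sign of 4 log2 folds: AKAP3 to 0.14 from -0.30 and Odf2 to 0.18 from -0.29 for the corpus over the caput, AKAP3 to -0.014 from 0.91 for the cauda over the caput, and CYLC1 to -1.12 from 0.29 for the cauda over the corpus. Each of these genes had peaks of both signs there. For the corpus over the caput the median also brought CYLC1 to -0.14 from -3.15 and Tsks to -0.77 from -2.91, without a change of sign. Counting every line gave 465, 326 and 355 candidate positions in the caput, corpus and cauda (146, 51 and 82 when counted once), since lines repeat. Requiring the candidate peak to lie wholly inside a span left 84 in the caput and 50 in the cauda. From high confidence upward 8, 2 and 6 positions were classed. EC2_2 was the highest library of all 10 rows when FPKM was rescaled to an equal sum per library, and of 8 when FPKM was scaled by the upper quartile, where AKAP3 and CAPZA3 were highest in EA4_1. Without EC2_2, all 10 were highest in an EA library.

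No replicate error can be given for any m6A value, and the depth behind each peak is unknown. In EB1_3, EB1_4 and EB2_1 several levels rest on fewer than 3 fragments.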
